A study of Mus musculus with 6 samples.

Results

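The genes described here are *Gsx1*, *Gsx2* and *Gadd45g*, which were chosen by name and are 3 of the 15168 genes listed for RNA sequencing of the lateral ganglionic eminence (LGE), the embryonic structure that makes striatal projection neurons. The Sp9-OE group was 3 libraries from embryos of the genotype *Dlx5/6-CIE; Rosa-Sp9-OE/+*, which carried a Cre transgene driven by *Dlx5/6* regulatory DNA together with a *Rosa26* allele that makes the transcription factor SP9 once Cre has removed a *LacZ*-STOP cassette. The control group was 3 libraries from *Dlx5/6-CIE* embryos, described by the study as littermates, which carried the same Cre transgene without the *Rosa26* allele. All tissue was taken at embryonic stage E16.5 from mice of a mixed strain background. The whole dissected LGE was sequenced, so the libraries mix cells in which the Cre transgene was active with ventricular zone cells in which it was not, and fewer cells of a type cannot be told apart from less RNA per cell.

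*Gsx1* and *Gsx2* encode related homeodomain transcription factors of the ParaHox family that mark neural progenitors of the ventral telencephalon. In the mouse, GSX2 acts early in ventricular zone progenitors to give them LGE identity, to keep pallial genes off and to hold back oligodendrocyte precursor production, whereas GSX1 promotes the maturation of progenitors as they leave the ventricular zone. *Gadd45g* encodes a small stress-responsive protein without enzyme activity that binds the kinase MAP3K4, the replication clamp PCNA and the CDK1-cyclin B1 complex, and it is switched on as neural progenitors leave the cell cycle.

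*Gsx1* (ENSMUSG00000053129) lies at chr5:147188696-147190947 and *Gsx2* (ENSMUSG00000035946) at chr5:75075601-75077893 on the plus strand of GRCm38 (mm10), and each has 2 exons. *Gadd45g* (ENSMUSG00000021453) lies at chr13:51846678-51848468 on the plus strand and has 4 exons. No other gene of the GENCODE annotation overlapped any of them or lay within 2 kb. The 250 bases upstream of each RefSeq transcription start are given below from RefSeq (GRCm38.p6), 5′ to 3′ on the plus strand. They are shown because the levels of the 3 genes were positively correlated across libraries, and any part of the promoters in that was not tested. Capitals mark matches, on either strand, to any of 5 short motifs: GGGCGG (the GC box), CAGCTG and CACGTG (E-boxes), TAATTA (a homeodomain core) and TATAAA (the TATA box).
Gsx1, chr5:147188446-147188695: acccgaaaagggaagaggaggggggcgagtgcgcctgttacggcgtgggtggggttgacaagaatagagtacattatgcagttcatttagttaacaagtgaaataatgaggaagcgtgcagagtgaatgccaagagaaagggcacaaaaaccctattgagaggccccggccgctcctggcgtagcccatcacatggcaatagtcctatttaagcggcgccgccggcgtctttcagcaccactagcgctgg
Gsx2, chr5:75075351-75075600: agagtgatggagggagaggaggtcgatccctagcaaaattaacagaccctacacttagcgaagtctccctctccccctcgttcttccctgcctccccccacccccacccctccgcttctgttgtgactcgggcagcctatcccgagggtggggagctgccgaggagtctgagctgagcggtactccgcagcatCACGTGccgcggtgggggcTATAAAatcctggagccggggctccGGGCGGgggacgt
Gadd45g, chr13:51846425-51846674: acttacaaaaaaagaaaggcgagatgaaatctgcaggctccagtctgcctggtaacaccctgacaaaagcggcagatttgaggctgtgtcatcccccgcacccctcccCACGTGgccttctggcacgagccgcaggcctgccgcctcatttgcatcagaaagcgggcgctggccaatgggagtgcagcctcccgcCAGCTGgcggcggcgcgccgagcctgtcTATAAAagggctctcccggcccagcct

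The *Gsx1* window held none of the 5 motifs, whereas the *Gsx2* and *Gadd45g* windows both held CACGTG and TATAAA. In the *Gsx2* window CACGTG began 57, TATAAA 38 and GGGCGG 13 bases before the start. In the *Gadd45g* window CACGTG began 142, CAGCTG 55 and TATAAA 27 bases before the start. Of 32851 mouse promoter windows of the same length, 32.7% held GGGCGG, 13.0% CAGCTG, 12.4% TATAAA, 6.02% CACGTG and 4.84% TAATTA. The GC content of the windows was 54.0% for *Gsx1*, 63.6% for *Gsx2* and 62.0% for *Gadd45g*, against a median of 52.4% over all windows. These matches describe the sequence and are not binding sites.

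Reads that come from one *Gsx* gene could be counted for the other only where the transcripts share sequence. The longest run common to the main *Gsx1* and *Gsx2* transcripts was 23 bases, in the coding part of exon 2 of each gene (chr5:147189837-147189859 in *Gsx1* and chr5:75077028-75077050 in *Gsx2*), and no stretch of 30 bases was shared. The shared run is shown in full because it is the longest place where a read could fit both genes.
Shared run: cagctcctggagctggagcgaga
*Gadd45g* shared at most 17 bases with *Gadd45a* and 14 bases with *Gadd45b*.

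Between 21767904 and 25126847 reads fell in the listed genes in the Sp9-OE libraries, and between 19410365 and 22174028 in the control libraries. *Sp9* itself had 178, 268 and 305 CPM (reads of a gene scaled to the size of its library) in Sp9-OE replicates 1 to 3, against 130, 147 and 170 CPM in control replicates 1 to 3, and the groups did not overlap. *Xist*, which is transcribed from the inactive X chromosome of female cells, was at 1.37, 2.33 and 1.90 CPM in the Sp9-OE libraries, against 2227, 2191 and 2.35 CPM in the controls. *Kdm5d*, on the Y chromosome, had 76.4, 75.8 and 80.6 CPM in Sp9-OE replicates 1 to 3, against 0.10, 0.05 and 73.7 CPM in control replicates 1 to 3. Control replicates 1 and 2 thus had female and the other 4 libraries male expression, and group and sex were partly confounded. Control replicates 1 and 3 and Sp9-OE replicate 3 also stood apart in genes of other cell types. Summed red blood cell genes (3 genes) were at 234, 209 and 240 CPM in Sp9-OE, against 555, 220 and 198 CPM in control replicates 1 to 3. The high sum of control replicate 1 came from *Hba-a2* alone (388 CPM), since *Hbb-bt* and *Alas2* were at 151 and 16.2 CPM there, within the range of the other controls. Summed cortical pyramidal neuron genes (4 genes) were at 31.9, 32.6 and 20.7 CPM in Sp9-OE, against 76.9, 33.5 and 5.68 CPM in controls, high in control replicate 1 and lowest in control replicate 3. Summed microglia genes (5 genes) were at 172, 120 and 39.1 CPM in Sp9-OE replicates 1 to 3, against 149, 212 and 193 CPM in controls. They were lowest in Sp9-OE replicate 3. The fold changes of the 3 genes were therefore also computed without each library in turn. The list medians were recomputed without control replicate 1 only, and not without Sp9-OE replicate 3.

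*Gsx1* was lower in all Sp9-OE libraries than in any control, the shift in *Gadd45g* and *Gsx2* was smaller with groups that overlapped, and no gene of the 3 passed the test across all genes. *Gsx1* had 6.53, 6.32 and 5.16 CPM in Sp9-OE replicates 1 to 3, against 6.97, 10 and 9.86 CPM in control replicates 1 to 3. The values rested on 167, 141 and 114 reads in Sp9-OE and 139, 201 and 222 reads in controls. The gap between the groups was narrow, because control replicate 1 was close to the Sp9-OE libraries and the other controls were well above it. The 95% Poisson counting interval of control replicate 1 ran from 5.86 to 8.23 CPM and so overlapped that of Sp9-OE replicate 1, from 5.57 to 7.59 CPM. The intervals of control replicates 2 and 3, from 8.67 to 11.5 CPM and from 8.60 to 11.2 CPM, overlapped none of the Sp9-OE intervals. These intervals cover counting error only.

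*Gsx2*, the main early determinant of LGE progenitor identity, had 17.9, 16.0 and 16.9 CPM in Sp9-OE replicates 1 to 3, against 14.7, 19.6 and 24.4 CPM in control replicates 1 to 3. All 3 Sp9-OE libraries lay inside the range of the controls, with the lowest and the highest library both controls. The coefficient of variation of *Gsx2* was 5.63% over the Sp9-OE libraries, against 24.6% over the controls, and whether the spread itself differed was not tested.

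*Gadd45g*, the cell cycle exit gene, had 68.4, 64.9 and 60.3 CPM in Sp9-OE replicates 1 to 3, against 62.8, 85.2 and 80.5 CPM in control replicates 1 to 3. Sp9-OE replicates 1 and 2 were above control replicate 1, and all 3 Sp9-OE libraries were below the other controls. With 1332 to 1751 reads per Sp9-OE library and 1253 to 1813 per control, counting error was a small part of the spread, at 1.66 CPM in Sp9-OE and 1.91 CPM in controls, against SDs of 4.08 CPM and 11.8 CPM. Control replicate 1 was the lowest control for each of the 3 genes.

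**Figure D1:**
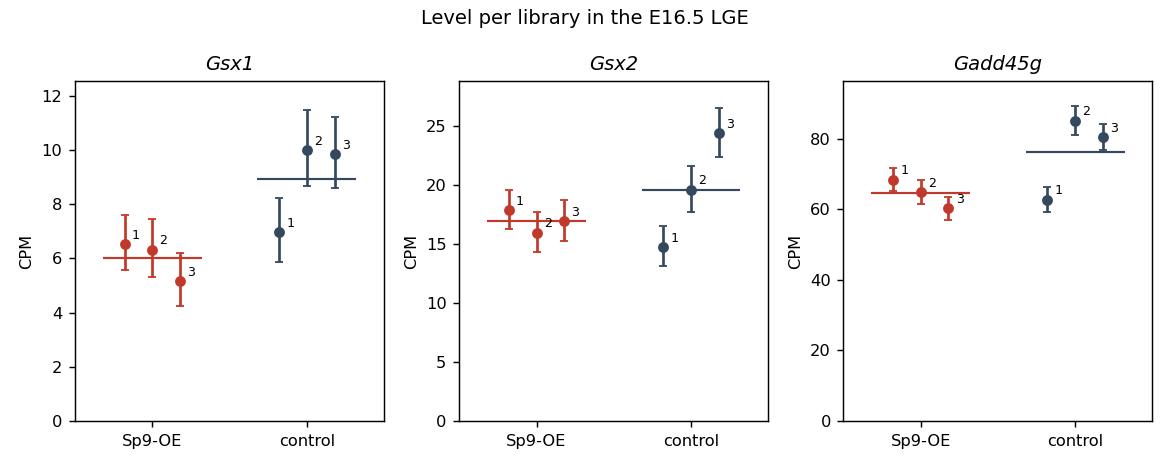
CPM of *Gsx1*, *Gsx2* and *Gadd45g* in each library (points with the library's replicate number and 95% Poisson counting interval). Sp9-OE is left of control, and horizontal lines mark the group mean (n = 3). The groups separate only for *Gsx1*, where the highest Sp9-OE library (6.53 CPM) is just under control replicate 1 (6.97 CPM).

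The groups were compared with limma on log2(CPM + 0.5) over the 15102 genes with at least 0.5 CPM in 3 or more libraries, with Benjamini-Hochberg adjustment over all of them and a threshold of 0.05. The methods state that several animals were used in each experiment but do not tie each library to an animal, and the p-values take their error from library-to-library spread alone. *Gsx1* averaged 6.00 ± 0.74 CPM in Sp9-OE and 8.94 ± 1.71 CPM in controls (SD, n = 3 each). Its log2 fold change was -0.53 (SE 0.17, 95% interval -0.92 to -0.14, limma adjusted p = 0.788), and by its size it was at the 96.8th percentile of all genes tested. *Gadd45g* averaged 64.5 ± 4.1 CPM in Sp9-OE and 76.2 ± 11.8 CPM in controls, with a log2 fold change of -0.23 (SE 0.11, 95% interval -0.49 to 0.03, limma adjusted p = 0.788). *Gsx2* averaged 16.9 ± 1.0 CPM in Sp9-OE and 19.6 ± 4.8 CPM in controls, with a log2 fold change of -0.18 (SE 0.17, 95% interval -0.56 to 0.20, limma adjusted p = 0.822). These 95% intervals treat each gene on its own and are not adjusted for the 15102 genes tested. Those of *Gadd45g* and *Gsx2* include 0 as well as decreases larger than their estimates. For these 2 genes the data neither show a difference nor limit it to a small one. The *Gsx1* interval lies below 0, but with its limma adjusted p of 0.788 no difference is established for *Gsx1* either.

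None of the 3 genes was called at an adjusted p under 0.05, and limma called 4 of the 15102 genes tested (0.0265%). *Sp9*, the overexpressed gene, was not called either (log2 fold change 0.72, limma adjusted p = 0.788). At an unadjusted p under 0.05, 1 of the 3 (*Gsx1*) was lower in Sp9-OE, as were 429 of all genes tested (2.84%). *Gsx1* no longer met this unadjusted level without control replicate 2 or without control replicate 3. *Gsx1* was also the only one of the 3 whose groups did not overlap, a pattern found with Sp9-OE lower in 866 genes (5.73%). The count tests run on whole reads recovered from the CPM values called 5 genes (edgeR) and 34 genes (DESeq2) in all and none of the 3. For *Gsx1* the log2 fold change was -0.58 by edgeR (adjusted p = 0.805) and -0.57 by DESeq2 (adjusted p = 0.673).

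**Figure D2:**
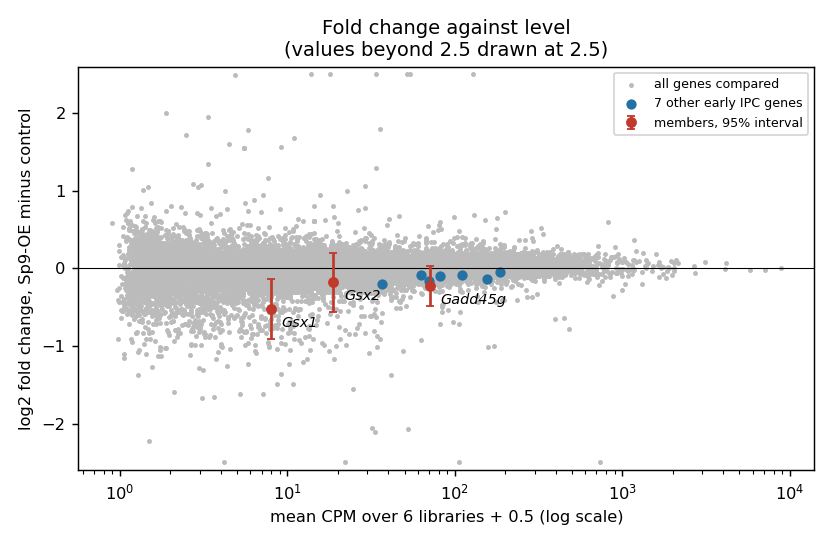
Log2 fold change (Sp9-OE over control) of each gene tested against its mean level, with *Gsx1*, *Gsx2* and *Gadd45g* marked by name. All 3 lie below 0, at -0.53, -0.18 and -0.23, and *Gsx1* is the lowest of them.

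The size of each difference depended on which libraries were in the fit. Without control replicate 1, the log2 fold change was -0.69 for *Gsx1* (limma adjusted p = 0.184), -0.36 for *Gsx2* (adjusted p = 0.288) and -0.36 for *Gadd45g* (adjusted p = 0.168). All 3 then had an unadjusted p under 0.05 with Sp9-OE lower, as had 906 of all genes tested (6.0%), and none was called. Leaving out control replicate 3 in place of replicate 1 gave -0.45 for *Gsx1*, -0.01 for *Gsx2* and -0.18 for *Gadd45g*. In the same order, the values were -0.44, -0.16 and -0.14 without control replicate 2. Without Sp9-OE replicate 3 they were -0.43, -0.18 and -0.18. Sex was handled by keeping only the libraries with male expression, which left control replicate 3 alone against the 3 Sp9-OE libraries and took the spread of the single control to equal that of the Sp9-OE group. The log2 fold changes were then -0.68 for *Gsx1* (limma adjusted p = 0.694), -0.52 for *Gsx2* (adjusted p = 0.576) and -0.32 for *Gadd45g* (adjusted p = 0.718). The sign was negative under every one of 17 alternative settings for each gene, between -0.69 and -0.43 for *Gsx1*, between -0.54 and -0.01 for *Gsx2* and between -0.36 and -0.14 for *Gadd45g*. The settings share libraries and are not independent checks.

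**Figure D3:**
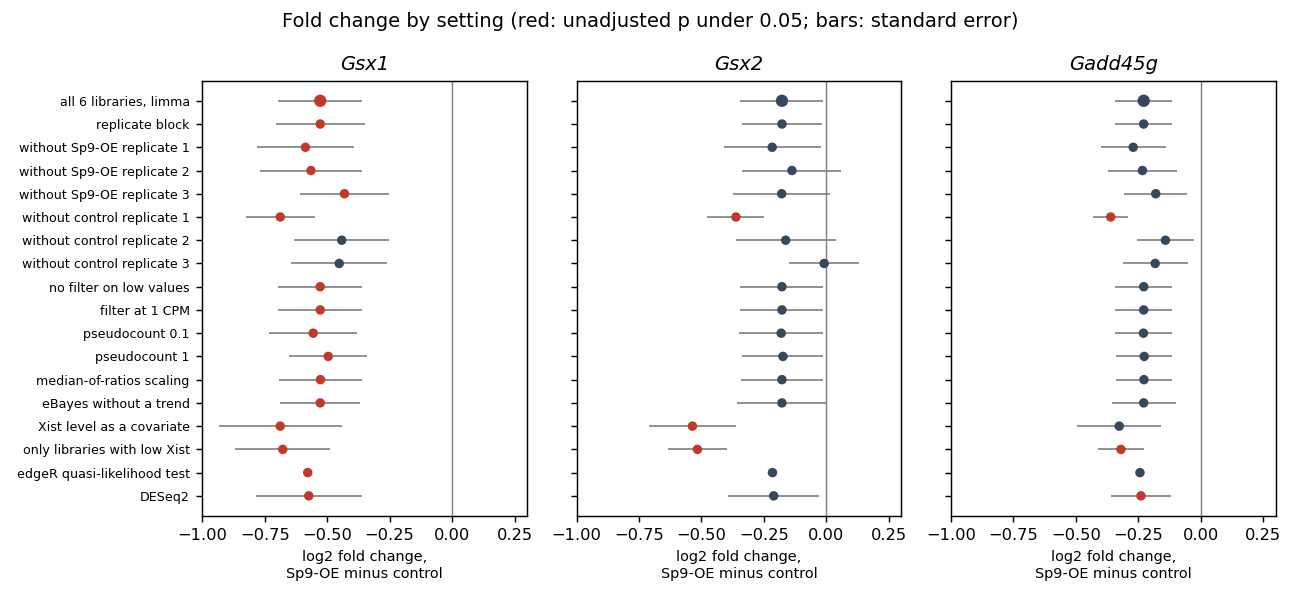
Log2 fold change (Sp9-OE over control) of the 3 genes under the main fit and each alternative, with bars for the standard error where one is available. Every estimate is below 0, and leaving out control replicate 1 moves *Gsx1* to -0.69 and *Gadd45g* to -0.36.

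Levels were compared between the genes per kilobase of exon. *Gadd45g* was the most abundant, at a mean of 55.0 CPM per kb in Sp9-OE and 64.9 CPM per kb in controls, which put it at the 96.0th percentile of genes. *Gsx2* followed with 10.2 CPM per kb in Sp9-OE and 11.8 CPM per kb in controls (68.6th percentile), and *Gsx1* was last with 3.385 CPM per kb in Sp9-OE and 5.04 CPM per kb in controls (43.5th percentile). The order was the same in every library.

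Ratios between the genes were formed after their values had been seen and are given without a test. The *Gsx1* to *Gsx2* ratio, per kilobase, was 0.343, 0.372 and 0.286 in Sp9-OE replicates 1 to 3, against 0.444, 0.479 and 0.380 in control replicates 1 to 3. The groups did not overlap, but the nearest libraries (0.372 in Sp9-OE and 0.380 in control replicate 3) were almost equal. The mean log2 difference was -0.38 with all libraries, -0.36 without control replicate 1 and -0.20 with male-expression libraries only. The *Gsx1* to *Gadd45g* ratio was 0.0631, 0.0644 and 0.0566 in Sp9-OE, against 0.0734, 0.0776 and 0.0810 in controls, a mean log2 difference of -0.34. Control replicate 1, which had low *Gsx1*, was also low in *Gadd45g*, and its ratio was above that of every Sp9-OE library. The *Gadd45g* to *Gsx2* ratio was 5.44, 5.77 and 5.06 in Sp9-OE, against 6.05, 6.17 and 4.69 in controls, and the groups overlapped.

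*Gsx1* was also set against summed genes of 3 progenitor populations. As a percentage of 7 other early intermediate progenitor genes it was 0.936, 0.940 and 0.800 in Sp9-OE, against 1.12, 1.28 and 1.28 in controls (mean log2 difference -0.46). As a percentage of 10 radial glia genes it was 0.198, 0.192 and 0.178 in Sp9-OE, against 0.223, 0.273 and 0.274 in controls (-0.44). As a percentage of 10 genes of cycling progenitors it was 0.295, 0.283 and 0.238 in Sp9-OE, against 0.346, 0.395 and 0.369 in controls (-0.45). Scaled to each of these lists, *Gsx1* was lower in every Sp9-OE library than in any control. *Gadd45g* as a percentage of the early intermediate progenitor genes was 9.81, 9.66 and 9.35 in Sp9-OE, against 10.1, 10.9 and 10.4 in controls, a smaller separation (mean log2 difference -0.13). As a percentage of the radial glia genes *Gadd45g* was 2.07, 1.97 and 2.08 in Sp9-OE, against 2.01, 2.33 and 2.24 in controls, and the groups overlapped. They also overlapped for *Gadd45g* over the cycling genes, at 3.10, 2.91 and 2.78 in Sp9-OE, against 3.12, 3.36 and 3.02 in controls, and for *Gsx2* over each of the 3 lists (mean log2 differences -0.08, -0.055 and -0.07).

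**Figure D4:**
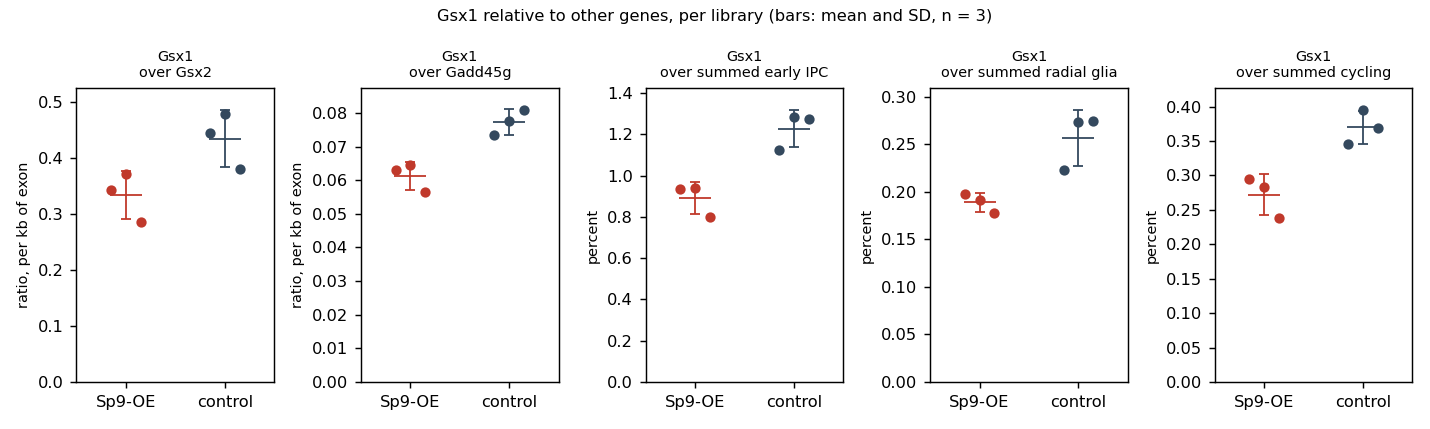
*Gsx1* divided by *Gsx2*, by *Gadd45g* (both per kilobase of exon) and by summed progenitor lists (percent), per library, with Sp9-OE left of control and bars for the mean and SD (n = 3). In each panel the Sp9-OE libraries lie below the controls, by the least for the ratio to *Gsx2* (0.372 against 0.380 for the nearest pair).

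Progenitor genes other than the 3 were lower by value in Sp9-OE more often than not, and none was called. Genes are counted as lower or higher by value from the sign of the fitted log2 fold change. All 7 other early intermediate progenitor genes were lower by value, with a median log2 fold change of -0.10 against 0.00 for all genes tested, of which 49.8% were lower by value. *Insm1*, a zinc finger factor of basal progenitors, averaged 181 CPM in Sp9-OE and 188 CPM in controls (-0.045).

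Of 10 radial glia genes, 7 were lower by value (median log2 fold change -0.12). *Fabp7*, a fatty acid binding protein of radial glia, averaged 671 CPM in Sp9-OE and 773 CPM in controls (-0.21, and -0.09 without Sp9-OE replicate 3). Of 10 genes of cycling progenitors, 9 were lower by value (median -0.14). *Mki67*, the proliferation marker, averaged 591 CPM in Sp9-OE and 627 CPM in controls, and *Top2a*, a topoisomerase of dividing cells, 565 CPM in Sp9-OE and 607 CPM in controls. Control replicate 1 had the lowest sum for the cycling and the early intermediate progenitor genes, whereas for the radial glia genes Sp9-OE replicate 3 was lower (2899 CPM, against 3123 CPM in control replicate 1). The cycling genes summed to 2210, 2233 and 2167 CPM in Sp9-OE, against 2012, 2534 and 2670 CPM in control replicates 1 to 3, and the early intermediate progenitor genes to 697, 672 and 645 CPM in Sp9-OE, against 620, 779 and 772 CPM in controls. Without control replicate 1, the list medians were -0.21 for early intermediate progenitor, -0.18 for radial glia and -0.25 for cycling genes. The part of a lower progenitor share in the values of *Gsx1*, *Gsx2* and *Gadd45g* was not tested, and the ratios above carry no test.

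**Figure D5:**
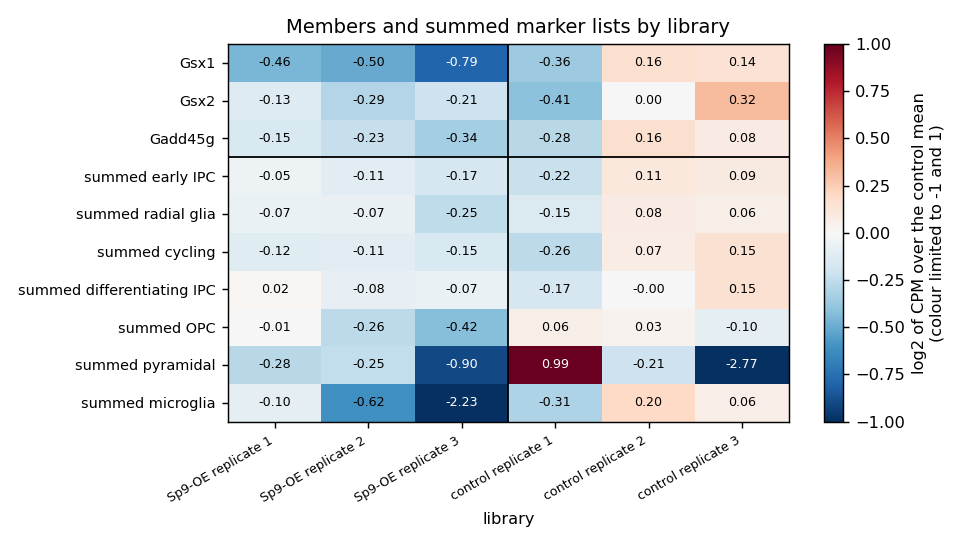
Log2 level of each of the 3 genes and of summed marker genes (IPC, intermediate progenitor; OPC, oligodendrocyte precursor) in each library, relative to the mean of the 3 controls. Control replicate 1 is lower than the other controls for the 3 genes and for the summed progenitor genes, and *Gsx1* is below 0 in all Sp9-OE libraries.

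Genes that depend on GSX2 in the mouse showed no shared direction. Of 11 subpallial genes known to be reduced in embryos without GSX2, 6 were higher and 5 lower by value (median log2 fold change 0.00), and none was called. *Dlx1* and *Dlx2*, homeobox genes of migrating progenitors, averaged 757 and 334 CPM in Sp9-OE, against 820 and 346 CPM in controls. *Ebf1*, a factor of direct-pathway striatal neurons, averaged 191 CPM in Sp9-OE and 174 CPM in controls. Of 7 differentiating intermediate progenitor genes, 5 of them also in that list, 4 were lower by value (median -0.04). Of the 6 pallial progenitor genes that GSX2 holds off, 4 were in the table and 3 of those were lower by value (median -0.07), but without control replicate 1 the direction turned, with 1 of 4 lower and a median of 0.25. *Pax6*, the most abundant, averaged 42.1 CPM in Sp9-OE and 45.7 CPM in controls, and *Neurog1* and *Dbx1* were not analysed here. The other ParaHox genes, *Pdx1*, *Cdx1*, *Cdx2* and *Cdx4*, were not analysed here either.

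All 6 oligodendrocyte precursor genes, a lineage that GSX2 restrains in mouse, were lower by value (median log2 fold change -0.25) and none was called. *Olig2*, the lineage factor shared with ventral progenitors, averaged 36.3 CPM in Sp9-OE and 39.9 CPM in controls. *Pdgfra*, the growth factor receptor of these cells and a neighbour of *Gsx2* on the chromosome, averaged 18.8 CPM in Sp9-OE and 22.3 CPM in controls (-0.245, and -0.12 without Sp9-OE replicate 3 or -0.37 without Sp9-OE replicate 1). *Cspg4*, the NG2 proteoglycan gene, averaged 13.6 CPM in Sp9-OE and 16.2 CPM in controls (-0.25), and its groups did not overlap. Nor did those of *Sox10*, named after its values were seen (3.05, 2.78 and 2.67 CPM in Sp9-OE, against 3.11, 3.43 and 3.37 CPM in controls). This pattern with Sp9-OE lower was found in 5.73% of all genes tested. The 6 genes summed to 111, 92.9 and 83.0 CPM in Sp9-OE replicates 1 to 3, against 116, 114 and 104 CPM in control replicates 1 to 3. With male-expression libraries only, the log2 fold change was 0.011 for *Olig2*, -0.134 for *Pdgfra* and -0.242 for *Cspg4*.

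Among the relatives of *Gadd45g*, no gene was called. *Gadd45a* averaged 2.59 CPM in Sp9-OE and 2.80 CPM in controls, and *Gadd45b* 0.71 CPM in Sp9-OE and 0.96 CPM in controls, both far below *Gadd45g* although its exons, at 1173 bases, are shorter than those of *Gadd45a* (1764 bases) and *Gadd45b* (1589 bases). *Gadd45gip1*, which encodes a binding partner of the GADD45 proteins, averaged 22.6 CPM in Sp9-OE and 24.4 CPM in controls. These 3 genes were all lower by value (median log2 fold change -0.10). The 4 cell cycle partners of GADD45 proteins were lower by value too (median -0.23), 3 of them being cycling genes already counted. *Pcna* averaged 201 CPM in Sp9-OE and 237 CPM in controls (-0.23), *Cdk1* 72.6 CPM in Sp9-OE and 86.1 CPM in controls (-0.23), and *Cdkn1a*, the p21 inhibitor gene, 15.3 CPM in Sp9-OE and 20.4 CPM in controls (-0.505). The *Cdkn1a* value was carried by Sp9-OE replicate 3 and was -0.11 without it (-0.80 without Sp9-OE replicate 1). Without control replicate 1 *Pcna* and *Cdk1* were both at -0.36, whereas *Pcna* was at -0.14 without control replicate 3 and *Cdk1* at -0.13 without control replicate 2.

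The kinases of the p38 branch, which GADD45 proteins switch on through MAP3K4, were 3 lower and 2 higher by value out of 5 (median -0.02). *Map3k4* averaged 65.9 CPM in Sp9-OE and 65.7 CPM in controls, *Mapk14* 65.6 CPM in Sp9-OE and 66.4 CPM in controls, and *Mapk11* 60.02 CPM in Sp9-OE and 54.7 CPM in controls, without overlap. *Map2k3*, a kinase that activates p38, did not overlap in the other direction, at 17.7, 17.0 and 15.5 CPM in Sp9-OE, against 18.05, 19.95 and 20.2 CPM in controls (log2 fold change -0.21). Of 7 genes of DNA demethylation and base excision, a process linked to GADD45 proteins, 5 were higher by value (median 0.065). *Tet2*, a methylcytosine dioxygenase gene, averaged 114 CPM in Sp9-OE and 104 CPM in controls (0.12) without overlap. *Tet3* averaged 318 CPM in Sp9-OE and 304 CPM in controls. *Tdg*, a thymine DNA glycosylase gene, averaged 89.3 CPM in Sp9-OE and 84.5 CPM in controls, also without overlap. Groups without overlap and with Sp9-OE lower, as for *Map2k3*, were found in 5.73% of all genes tested. The share of all genes without overlap and with Sp9-OE higher was not counted. GADD45 genes respond to stress, so 2 stress lists were read beside *Gadd45g*. Of 6 p53 targets, *Cdkn1a* again among them, 5 were lower by value (median -0.25), and of 9 immediate early and stress genes, 8 (median -0.19, and -0.045 without control replicate 1). The p53 targets summed to 347, 323 and 293 CPM in Sp9-OE replicates 1 to 3, against 316.5, 354 and 369 CPM in control replicates 1 to 3.

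Markers of other cells were read beside these results. All 5 D2-type striatal neuron genes were higher by value (median log2 fold change 0.69), the D1-type genes were 3 of 5 lower (median -0.01), and 3 of 4 medial ganglionic eminence and interneuron genes were lower (median -0.18). Without control replicate 1 the D1-type and the medial ganglionic eminence and interneuron lists turned, with 1 of 5 lower (median 0.08) and 1 of 4 lower (median 0.16). The D1-type median does not describe *Drd1*, the D1 dopamine receptor gene, named here after its values were seen. It had 2.15, 3.00 and 3.485 CPM in Sp9-OE replicates 1 to 3, against 15.7, 7.02 and 8.35 CPM in control replicates 1 to 3 (log2 fold change -1.62, limma adjusted p = 0.523). The *Drd1* groups did not overlap, and DESeq2 alone among 17 alternatives called the gene (adjusted p = 4.53e-05, against up to 0.959 in the others). All 5 microglia genes were lower by value (median -0.90). They summed to 172, 120 and 39.1 CPM in Sp9-OE replicates 1 to 3, against 149, 212 and 193 CPM in controls, which overlapped. *Cx3cr1*, a microglial chemokine receptor gene, averaged 34.4 CPM in Sp9-OE and 62.8 CPM in controls (log2 fold change -1.065, and -0.485 without Sp9-OE replicate 3). The 3 red blood cell genes were lower by value (median -0.07), as were the 6 endothelial and mural genes (median -0.15), and 1 of 4 pyramidal neuron genes was lower (median 0.07, and 0.86 without control replicate 1). The pyramidal direction depends on the scale, because all 4 of these genes had lower mean CPM in Sp9-OE, such as *Tbr1* with 11.1 CPM in Sp9-OE and 15.3 CPM in controls. No gene of these lists passed the limma test, and the part of other cell types in the values of *Gsx1*, *Gsx2* and *Gadd45g* was not tested.

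The nearest tested genes on the chromosome were not called. *Polr1d*, an RNA polymerase subunit gene 77.1 kb from *Gsx1*, averaged 42.2 CPM in Sp9-OE and 42.9 CPM in controls. *Chic2*, 30.8 kb from *Gsx2*, averaged 40.9 CPM in Sp9-OE and 42.3 CPM in controls. *Sema4d*, a semaphorin gene 52.9 kb from *Gadd45g*, averaged 16.1 CPM in Sp9-OE and 18.3 CPM in controls (log2 fold change -0.18). Its groups did not overlap, as in 5.73% of all genes tested with Sp9-OE lower.

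The levels of *Gsx1* and *Gadd45g* varied together over the 6 libraries, and *Gsx2* followed them less closely. Pearson's r on log2(CPM + 0.5) was 0.946 for *Gadd45g* with *Gsx1*, 0.797 for *Gadd45g* with *Gsx2* and 0.719 for *Gsx1* with *Gsx2*, and with the group means removed it was 0.969, 0.768 and 0.749. Among the r values of all genes compared, the first pair stood at the 98.3rd percentile, but *Gadd45g* with *Gsx2* only at the 89.8th and *Gsx1* with *Gsx2* at the 85.5th. These are descriptions over 6 libraries that share depth and tissue makeup. Of 11561 genes with a mean of at least 5 CPM, 353 (3.05%) had an r over 0.9 with *Gsx1*, 218 (1.89%) with *Gsx2* and 460 (3.98%) with *Gadd45g*. The genes most like *Gsx1* were *Ndufa6* (r = 0.995), *Stk38l*, *Timm8a1*, *Ccnd3* and *Ss18*. Those most like *Gsx2* were *Wdr5* (r = 0.990), *Nedd1*, *4930503L19Rik*, *Tox3* and *Pak1ip1*, and those most like *Gadd45g* were *Slc12a7* (r = 0.995), *Ube2c*, *Chchd1*, *Ube2ql1* and *Kpna2*. The measure compares the shape and not the size of a pattern. *Ndufa6*, a mitochondrial complex I gene, ranged only between 33.0 and 34.2 CPM in Sp9-OE and between 34.5 and 36.5 CPM in controls. With the group means removed, the gene most like *Gsx1* was *Mrpl35*, that most like *Gsx2* was *Zscan29*, and that most like *Gadd45g* was *Nap1l4*.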

How the data were processed

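Total RNA from LGE tissue was made into stranded, ribosomal RNA-depleted libraries. The authors deposited 1 table of CPM values (read counts scaled to an effective library size) for 6 libraries, and the submitters' processing notes name mm10. Aligner and counter: not given in the sources used here. Also in the deposited table are the authors' own mean log2 level, log2 fold change, p-value and adjusted p-value, which were not used. At least 99.993% of CPM values were whole multiples of 1 read (within 0.0006 CPM).

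Libraries were compared with limma 3.58.1 (trend) on log2(CPM + 0.5) in R 4.3.3, with Benjamini-Hochberg adjustment over the 15102 genes that had at least 0.5 CPM in 3 or more libraries. As alternatives, edgeR 4.0.16 (quasi-likelihood) and DESeq2 1.42.0 were run on the recovered reads. The other alternatives changed the filter, the pseudocount, the scaling, the variance trend, the libraries or the covariates. Coordinates and exon lengths are from GENCODE (GRCm38), and promoters from RefSeq (GRCm38.p6).

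The members and the gene lists were chosen with earlier results of these data known. The genes named are the 3 members, the most abundant genes of each list, the nearest neighbours and the genes of most similar pattern; not all that this rule covers are printed, and 1 is withheld and not reported here. No 2 libraries of a group agreed within sampling noise. No amino acid sequence was used here.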

Additional observations from a re-analysis of the deposited data

How the results depend on the processing

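For *Gsx1*, *Gsx2* and *Gadd45g*, the log2 fold change kept its sign and stayed above the adjusted p threshold under all 17 alternatives, with adjusted p from 0.184 to 1.0 for *Gsx1*, 0.288 to 1.0 for *Gsx2* and 0.168 to 1.0 for *Gadd45g*. Limma called 4 genes in all, DESeq2 34, and leaving out 1 library at a time gave 3 to 15 (15 without control replicate 1, 11 without control replicate 3). The depth limits *Gsx1* most, at 114 to 222 reads per library.

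The replicate numbers were not used to pair the libraries in the main fit. Deviations from the group means correlated at -0.104, 0.202 and 0.083 between libraries of the same number. Between libraries of different number they correlated at -0.259 to 0.154, and not every library correlated best with its own number. With so few libraries per group, these correlations cannot settle whether the libraries were paired. With the replicate block, 3 genes were called, and the log2 fold change of *Gsx1* was -0.528 (limma adjusted p = 0.708).

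The sign was not stable in some other genes. In the main fit the log2 fold change was -0.103 for *Gadd45gip1*, 0.065 for *Tet3*, 0.007 for *Map3k4* and -0.136 for *Olig2*. With *Xist* as a covariate the log2 fold change was 0.109 for *Gadd45gip1*, -0.032 for *Tet3*, -0.013 for *Map3k4* and 0.01 for *Olig2*, and with low-*Xist* libraries only it was 0.109, -0.031, -0.013 and 0.011. Leaving out 1 library at a time gave log2 fold changes of -0.131 to 0.015 for *Insm1*, -0.214 to 0.051 for *Mki67*, -0.173 to 0.016 for *Gadd45a*, -0.033 to 0.037 for *Map3k4*, -0.04 to 0.015 for *Mapk14*, -0.133 to 0.037 for *Dlx2* and -0.073 to 0.035 for *Polr1d*. The ratio of *Gsx1* to *Gsx2*, tried after seeing the data, moved to a log2 difference of -0.195 with low-*Xist* libraries only. The cause of these changes was not tested.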
